A study of Homo sapiens with 6 samples.

Results

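Integrin subunit transcripts were examined in the established human prostate cancer line PC3 after siRNA against neuropilin-2 (NRP-2) or against vascular endothelial growth factor C (VEGF-C). The genes considered were ITGA2, ITGA3, ITGA5, ITGA6, ITGAV, ITGB1, ITGB4, ITGB5, ITGB6 and ITGB8. For each, every probe set whose platform annotation names that gene and no other was taken, and this left 9 of the 10 genes with 28 probe sets, out of 19775 genes named by a probe set of their own. All 4 probe sets of ITGB6 are annotated to LINC02478 as well, so ITGB6 was given no value. Total RNA was measured on 6 Affymetrix HG-U133 Plus 2.0 arrays, with 2 arrays each for NRP-2 siRNA, VEGF-C siRNA and scrambled siRNA, all taken 72 h after transfection of cells kept in RPMI medium with 10% fetal bovine serum. The siRNAs were cocktails, that against NRP-2 from Santa Cruz Biotechnology and that against VEGF-C from Dharmacon, so the target and the supplier cannot be told apart, and each target was hit with 1 cocktail in 1 cell line. The labels do not say whether the 2 arrays of a group came from separate cultures, so p-values rest on a spread between arrays that may be technical.

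Integrins are cell surface receptors made of an alpha and a beta chain, and they tie the extracellular matrix to the actin or keratin cytoskeleton through adaptor proteins on the beta tail. The beta 1 chain (ITGB1) pairs with ITGA2 into a collagen receptor, with ITGA3 and ITGA6 into laminin receptors and with ITGA5 into the fibronectin receptor. The beta 4 chain pairs with ITGA6 alone, in hemidesmosomes, while ITGAV pairs with several beta chains into receptors for vitronectin and for latent TGF-beta. NRP-2 is a coreceptor of VEGF-C, and it has been reported to associate with the ITGA6-ITGB1 receptor in breast carcinoma cells.

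Levels below are the deposited log2 expression values, whose range was 0.82 to 16.32, and differences are differences of these values with the first named siRNA minus the second. A value is specific to its probe set, so levels were not compared between genes. The epithelial markers KRT8, KRT18, KRT19, EPCAM and CDH1 all passed the filter of a mean of at least 4 over the 6 arrays, with means between 12.0 and 14.7. Most markers of other cell types had means below it over the 6 arrays, among them 4 of 5 fibroblast markers (not COL3A1, with 7.04 to 8.75), 4 of 5 leukocyte markers (not ITGB2, with 9.19 to 10.4), 3 of 5 endothelial markers (not PECAM1, with 9.17 to 10.9, or KDR, with 5.02 to 5.13) and all 3 platelet markers, of which PF4 (3.37 to 5.04) exceeded 4 on at least 1 array. PTPRC, CDH5 and PDGFRB, which mark leukocytes, endothelium and fibroblasts, had means of 3.21, 2.40 and 2.11. The luminal prostate gene KLK3 had 6.26 to 6.87, and TMPRSS2 had 7.02 to 9.25. The medians of the 6 arrays spread over 0.07.

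The targeted transcripts were checked first. NRP2 had 3.41 and 2.81 in NRP-2 siRNA cells, 5.51 and 6.01 in VEGF-C siRNA cells, and 4.77 and 4.92 in scrambled siRNA cells. The NRP-2 siRNA arrays were the lowest, with no overlap, and differed from scrambled siRNA by -1.74 (SE 0.26, limma adjusted p = 0.213). Their values were under the filter of 4 and near the medians of the arrays (about 3.0), and the gene passed the filter through the other groups, so -1.74 is no exact size and the true difference may be larger. In VEGF-C siRNA cells NRP2 was above scrambled siRNA by 0.91 (SE 0.26, limma adjusted p = 0.257). VEGFC had 11.99 and 11.67 in NRP-2 siRNA cells, 8.46 and 7.27 in VEGF-C siRNA cells, and 11.81 and 11.80 in scrambled siRNA cells. Only the VEGF-C siRNA arrays were low for VEGFC, by -3.95 against scrambled siRNA (SE 0.39, limma adjusted p = 0.204). Each siRNA was thus accompanied by a lower level of its own target, although with 2 arrays a group neither passed the threshold of an adjusted p under 0.05 over the 11131 genes tested.

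The comparison of NRP-2 siRNA with scrambled siRNA asked which transcripts differed when the VEGF-C coreceptor was targeted. Among the 9 measured integrin subunits, ITGA2 was lower by 1.72 log2 units (3.30-fold) and ITGA3 by 0.67 (1.59-fold), while the other 7 had differences between -0.11 and +0.47. By limma, 0 of the 9 passed an adjusted p under 0.05, as did 0% of all 11131 genes, where the lowest adjusted p was 0.138. At an unadjusted p under 0.05, 2 of the 9 were lower, ITGA2 and ITGA3, beside 6.85% of all genes, and 0 were higher, beside 6.43% of all genes, each gene being read by its brightest probe set (a dimmer one of ITGB5 was higher). The NRP-2 siRNA arrays lay wholly below the scrambled siRNA arrays for 2 of the 9, again ITGA2 and ITGA3, beside 24.4% of all genes, and wholly above them for 1, ITGA5, beside 25.3%. The median difference of the 9 was 0.01, as was that of all genes, with 5 of the 9 above 0. Which members had an unadjusted p under 0.05 depended on single arrays. Without scrambled array 1, ITGA3 was lower by 0.57 and no longer passed. Without NRP-2 array 2, ITGB5 was at +0.47, and without either VEGF-C array ITGA5 stayed at +0.47. The share of all genes was not counted with an array left out, so no number of members is read there.

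The comparison of VEGF-C siRNA with the same scrambled siRNA arrays asked this for the ligand. The 9 integrin subunits had differences from -0.30 for ITGAV to +0.13 for ITGB5. By limma, 0 of the 9 passed an adjusted p under 0.05, as did 0% of all genes, where the lowest adjusted p was 0.204. At an unadjusted p under 0.05, 0 were higher, beside 6.95% of all genes, and 0 were lower, beside 7.80%. Arrays did not overlap for 2 that were higher, ITGB1 and ITGB5, beside 26.8% of all genes, and for 2 that were lower, ITGA2 and ITGAV, beside 26.6%. These directions are those of each gene's brightest probe set. On dimmer ones, ITGB5 was wholly lower on 201124_at (-0.45) and overlapped on 214020_x_at. ITGA2 (+0.02 on 205032_at) and ITGB1 overlapped on theirs. The median of the 9 was -0.03, against -0.004 for all genes.

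**Figure D1:**
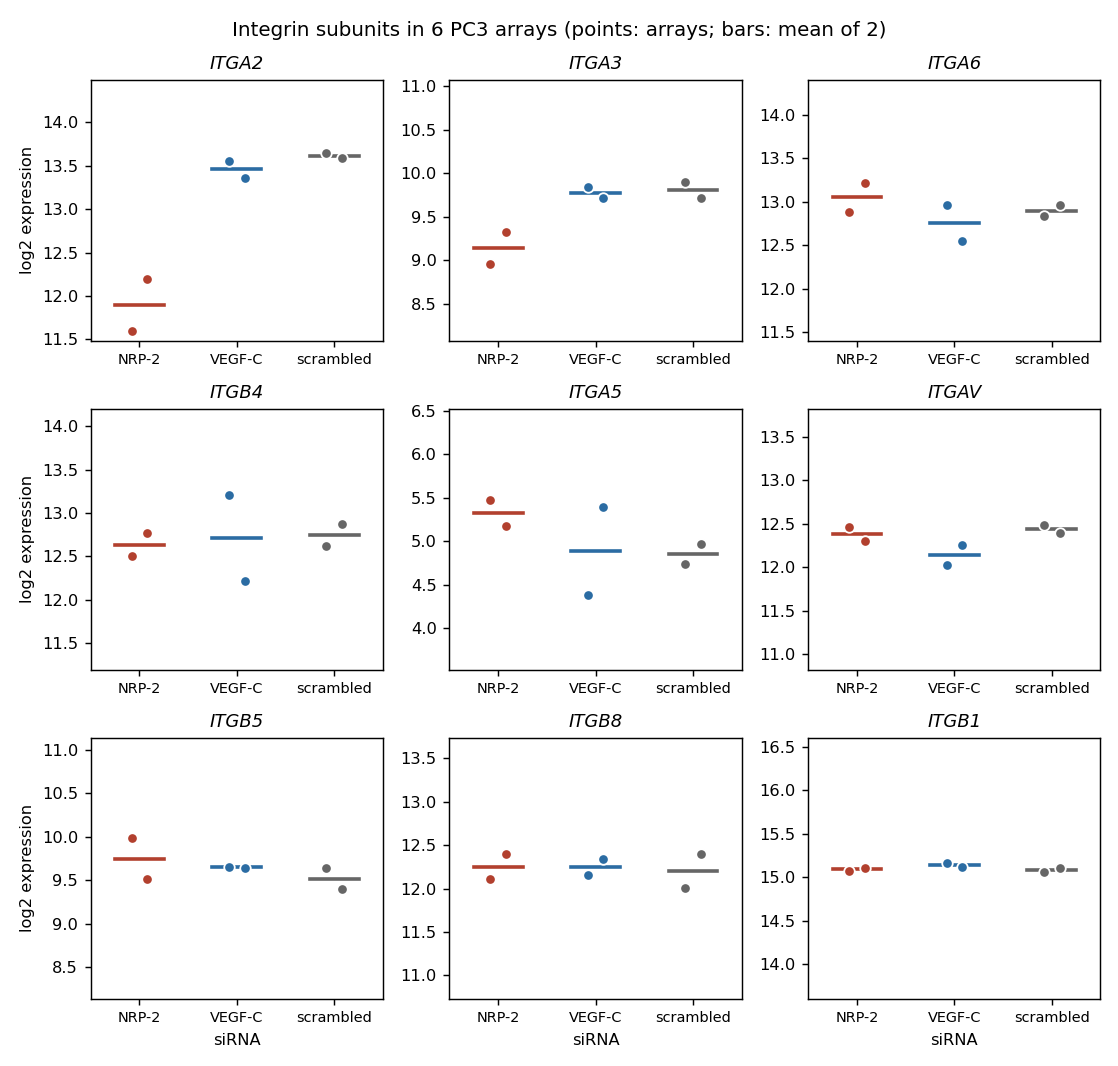
Deposited log2 expression of 9 integrin subunits (1 probe set each, vertical axes all spanning the same number of log2 units) by siRNA. Points are arrays and bars are means of 2. The NRP-2 siRNA arrays are separated below the other 4 arrays for ITGA2 and ITGA3, and ITGB1 is nearly level in all 6.

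NRP-2 siRNA was also compared with VEGF-C siRNA on the same arrays, so this comparison is not independent of the other two. ITGA2 (-1.56) and ITGA3 (-0.64) were again the lowest of the 9 differences, and the other 7 lay between -0.08 and +0.43. By limma, 0 of the 9 passed an adjusted p under 0.05, as did 0% of all genes, where the lowest adjusted p was 0.0980. At an unadjusted p under 0.05, 2 were lower, ITGA2 and ITGA3, beside 8.66% of all genes, and 0 were higher, beside 9.54% (again apart from the dimmer ITGB5 probe set). The NRP-2 siRNA arrays lay wholly below the VEGF-C siRNA arrays for 3 of the 9, ITGA2, ITGA3 and ITGB1, beside 22.4% of all genes, and wholly above them for 1, ITGAV, beside 24.1%. Here too the members with an unadjusted p under 0.05 depended on single arrays. Without VEGF-C array 1, ITGA3 was lower by 0.57 and no longer passed. Without VEGF-C array 2, ITGA5 was at +0.94 and ITGB4 at -0.57. No share of all genes was counted in these fits either.

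**Figure D2:**
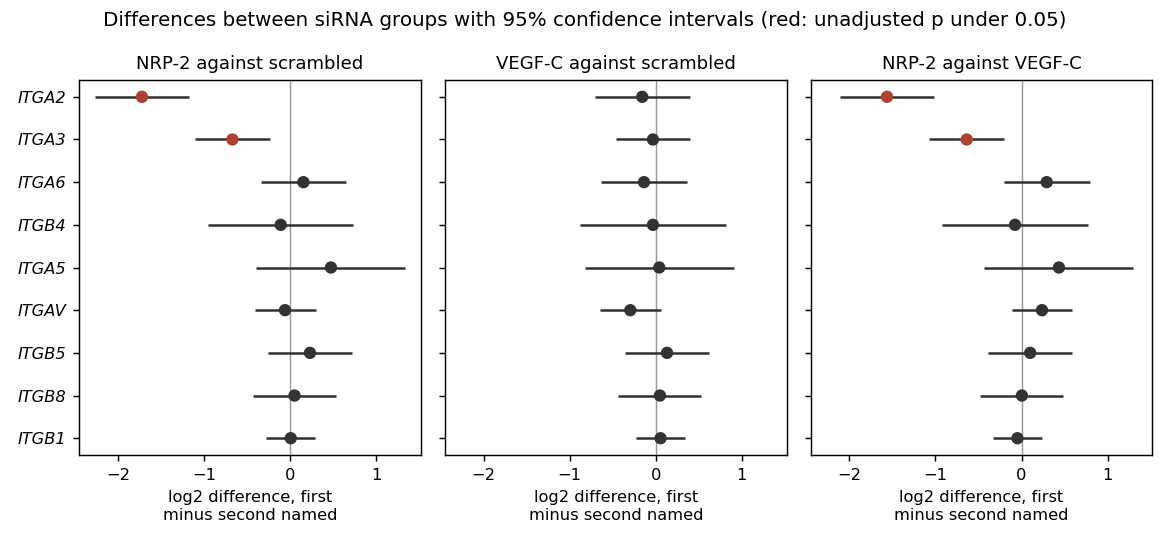
Log2 differences of 9 integrin subunits with 95% confidence intervals from limma in the 3 comparisons, the first named siRNA minus the second. The intervals of ITGA2 and ITGA3 lie below 0 in both comparisons of NRP-2 siRNA, and all intervals of VEGF-C siRNA against scrambled siRNA hold 0.

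ITGA2, the collagen-binding alpha chain, had the largest difference of the family. On probe set 227314_at it had 11.60 and 12.19 in NRP-2 siRNA cells, 13.55 and 13.36 in VEGF-C siRNA cells, and 13.64 and 13.59 in scrambled siRNA cells. Those of NRP-2 siRNA were the 2 lowest arrays, by a gap wider than the spread within any group, and the order of the means was NRP-2 siRNA, VEGF-C siRNA, scrambled siRNA, from low to high. Its mean was 11.89 ± 0.42 with NRP-2 siRNA and 13.61 ± 0.036 with scrambled siRNA (SD, n = 2 each), a difference of -1.72 (SE 0.22, 95% confidence interval -2.27 to -1.17). It ranked 18 of 11131 genes by p (limma adjusted p = 0.213). Against VEGF-C siRNA the difference was -1.56 (SE 0.22, interval -2.11 to -1.01, 2.95-fold, limma adjusted p = 0.104). VEGF-C siRNA and scrambled siRNA, next to each other in that order, differed by -0.16 (interval -0.71 to 0.39, limma adjusted p = 0.768). In a bulk measurement such as this, fewer cells with the transcript and less transcript per cell cannot be told apart.

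The second ITGA2 probe set, 205032_at, gave a like picture at a lower level. It had 8.81 and 9.33 in NRP-2 siRNA cells, 11.13 and 10.72 in VEGF-C siRNA cells, and 10.91 and 10.90 in scrambled siRNA cells. Here too the NRP-2 siRNA arrays stood apart, while the other 2 groups overlapped. The differences were -1.83 against scrambled siRNA and -1.85 against VEGF-C siRNA (SE 0.23 for each, limma adjusted p = 0.182 and 0.0836 over 19946 probe sets), while VEGF-C siRNA differed from scrambled siRNA by +0.02. Both ITGA2 probe sets measure the same RNA samples, so they are not replicates of the condition.

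The mean level of 37 genes of G2 and mitosis differed between arrays as well. It was 11.16 and 10.14 in NRP-2 siRNA cells, 11.29 and 10.57 in VEGF-C siRNA cells, and 10.43 and 8.78 in scrambled siRNA cells, so that the arrays of each group lay apart from each other. The NRP-2 siRNA range overlapped that of scrambled siRNA, although for both replicate numbers the NRP-2 siRNA array was above the scrambled siRNA array of the same number. In each comparison against scrambled siRNA all 37 of these genes were higher, with medians of 1.02 for NRP-2 siRNA and 1.31 for VEGF-C siRNA. By limma, 0 passed an adjusted p under 0.05. At an unadjusted p under 0.05, 0 were higher in NRP-2 siRNA cells, beside 6.43% of all genes. In VEGF-C siRNA cells 3 were, AURKB, UBE2C and CENPE, beside 6.95% of all genes. The 37 genes were read on the same 6 arrays, so they are not separate observations of a condition. With the mean of these genes as a covariate, ITGA2 was lower by 1.63 and ITGA3 by 0.68 in NRP-2 siRNA cells against scrambled siRNA (limma adjusted p = 0.355 and 0.489).

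To show the sequence in front of the subunit that differed most and of the beta chain it pairs with, the 250 bases before the RefSeq start of each gene (GRCh38.p14, 5′ to 3′ on the gene's own strand) are printed with GC box matches in capitals. The window of ITGA2 is chr5:52989102-52989351 on the plus strand, and that of ITGB1, the first of its 2 listed windows, is chr10:32958231-32958480 on the minus strand.
ITGA2: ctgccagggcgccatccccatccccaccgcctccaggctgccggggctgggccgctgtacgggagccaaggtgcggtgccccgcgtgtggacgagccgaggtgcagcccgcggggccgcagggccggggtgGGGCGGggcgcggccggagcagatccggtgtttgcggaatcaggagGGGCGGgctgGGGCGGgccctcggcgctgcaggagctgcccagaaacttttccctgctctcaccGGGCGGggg
ITGB1: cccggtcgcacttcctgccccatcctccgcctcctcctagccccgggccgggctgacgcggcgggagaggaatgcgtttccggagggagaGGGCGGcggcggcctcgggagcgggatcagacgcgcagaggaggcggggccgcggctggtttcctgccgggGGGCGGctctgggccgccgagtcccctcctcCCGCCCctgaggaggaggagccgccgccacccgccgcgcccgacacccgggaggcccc
The motifs searched, on both strands, were the GC box (GGGCGG), the AP-1 site (TGANTCA), the TATA box (TATAAA) and the CCAAT box (CCAAT). ITGA2 held 4 GC boxes, starting 119, 73, 63 and 9 bases before the gene start, and ITGB1 held 3, starting 160, 89 and 58 bases before it. Neither of these windows held any of the other 3 motifs. The second ITGB1 window, which is not printed, held 3 TATA box matches and 0 GC boxes, with 41.6% G and C. These matches started 102, 100 and 35 bases before its end, and those at 102 and 100 overlap on opposite strands. Over the 35116 windows of all genes, 42.6% held a GC box, 6.57% an AP-1 site, 10.7% a TATA box and 32.0% a CCAAT box. The share of G and C was 76.4% in the ITGA2 window and 78.4% in the ITGB1 window, against a median of 58.0% over all windows. RefSeq windows were matched for 8 of the 10 genes, and 6 of these genes, ITGA2, ITGA5, ITGA6, ITGB1, ITGB5 and ITGB8, had a GC box in at least 1 window. Another window of ITGA6, ITGB1 and ITGB5 held none. The 42.6% is a share of windows, so this count of genes cannot be set against it.

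Of the laminin receptor chains, ITGA3 was lower in NRP-2 siRNA cells. ITGA3 pairs with ITGB1 and binds laminins of epithelial basement membranes. On its single probe set, 201474_s_at, it had 8.95 and 9.33 in NRP-2 siRNA cells, 9.84 and 9.71 in VEGF-C siRNA cells, and 9.90 and 9.71 in scrambled siRNA cells. Again both NRP-2 siRNA arrays were the lowest of the 6, and the other groups overlapped. The difference was -0.67 against scrambled siRNA (SE 0.17, interval -1.10 to -0.24, limma adjusted p = 0.252) and -0.64 against VEGF-C siRNA (SE 0.17, interval -1.07 to -0.20, limma adjusted p = 0.169), with VEGF-C siRNA at -0.03 from scrambled siRNA (interval -0.47 to 0.40). By p it ranked 434 of 11131 genes in the first of these and 803 in the second.

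ITGA6, the laminin-binding chain shared by ITGB1 and ITGB4, showed no separation of the groups. Probe set 201656_at had 12.89 and 13.22 in NRP-2 siRNA cells, 12.97 and 12.55 in VEGF-C siRNA cells, and 12.84 and 12.96 in scrambled siRNA cells. Every pair of groups overlapped, and the differences against scrambled siRNA were +0.16 for NRP-2 siRNA (interval -0.34 to 0.65, limma adjusted p = 0.742) and -0.14 for VEGF-C siRNA (interval -0.64 to 0.36, limma adjusted p = 0.776). The second probe set, 215177_s_at, also overlapped in all pairs, with +0.30 and -0.06 in the same comparisons. NRP-2 siRNA against VEGF-C siRNA gave +0.29 and +0.36 on the 2 probe sets, and the first of these ran from +0.09 to +0.50 when single arrays were left out.

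ITGB4, the hemidesmosome beta chain, differed most between the 2 arrays of VEGF-C siRNA. Probe set 204990_s_at had 12.51 and 12.77 in NRP-2 siRNA cells, 13.21 and 12.22 in VEGF-C siRNA cells, and 12.62 and 12.87 in scrambled siRNA cells. The VEGF-C siRNA group held both the highest and the lowest of the 6 values, so all groups overlapped. The intervals were accordingly wide, from -0.95 to 0.74 for NRP-2 siRNA and from -0.88 to 0.81 for VEGF-C siRNA against scrambled siRNA, around differences of -0.11 and -0.03 (limma adjusted p = 0.905 and 0.973). On the dimmer 204989_s_at, with 5.56 and 5.64 in NRP-2 siRNA cells, 6.56 and 5.49 in VEGF-C siRNA cells, and 5.53 and 6.26 in scrambled siRNA cells, the groups overlapped too. Its differences against scrambled siRNA were -0.29 for NRP-2 siRNA and +0.13 for VEGF-C siRNA.

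ITGA5, the fibronectin receptor's alpha chain, was measured near the filter by 201389_at. It had 5.48 and 5.18 in NRP-2 siRNA cells, 4.39 and 5.40 in VEGF-C siRNA cells, and 4.74 and 4.97 in scrambled siRNA cells. The NRP-2 siRNA arrays were above the scrambled siRNA arrays, by +0.47 (interval -0.39 to 1.34, limma adjusted p = 0.557), and the VEGF-C siRNA arrays overlapped both. VEGF-C siRNA against scrambled siRNA gave +0.04 (interval -0.83 to 0.91).

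ITGAV, the alpha chain of the vitronectin receptors, had the smallest p of the 9 members in VEGF-C siRNA cells. Probe set 202351_at had 12.46 and 12.31 in NRP-2 siRNA cells, 12.03 and 12.26 in VEGF-C siRNA cells, and 12.48 and 12.40 in scrambled siRNA cells. The VEGF-C siRNA arrays were the 2 lowest, although one of them was only slightly below an NRP-2 siRNA array. The difference from scrambled siRNA was -0.30 (SE 0.14, interval -0.65 to 0.06, 1.23-fold, limma adjusted p = 0.394), and it ran from -0.41 to -0.18 when single arrays were left out. NRP-2 siRNA gave -0.06 against scrambled siRNA (interval -0.41 to 0.30) and +0.24 against VEGF-C siRNA (limma adjusted p = 0.438).

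ITGB5, a partner of ITGAV, was read by 3 probe sets that did not give the same picture. On 201125_s_at, the brightest, it had 9.98 and 9.52 in NRP-2 siRNA cells, 9.66 and 9.64 in VEGF-C siRNA cells, and 9.64 and 9.40 in scrambled siRNA cells. These values were close, with the VEGF-C siRNA arrays just above the scrambled siRNA arrays, and differed by +0.23 for NRP-2 siRNA and +0.13 for VEGF-C siRNA (intervals -0.25 to 0.72 and -0.36 to 0.62). Leaving out single arrays took the first from -0.002265 to 0.47 and the second from 0.0098 to 0.25. On 201124_at it had 6.01 and 5.74 in NRP-2 siRNA cells, 4.71 and 5.01 in VEGF-C siRNA cells, and 5.44 and 5.17 in scrambled siRNA cells. There the 3 groups did not overlap, with NRP-2 siRNA highest and VEGF-C siRNA lowest, and the difference between these extremes was +1.02 (SE 0.19, limma unadjusted p = 0.00214, adjusted p = 0.0986 over 19946 probe sets). Against scrambled siRNA this probe set gave +0.57 for NRP-2 siRNA (limma unadjusted p = 0.0255, adjusted p = 0.292 over 19946 probe sets) and -0.45 for VEGF-C siRNA (limma unadjusted p = 0.0582). The remaining probe set, 214020_x_at, stayed between 4.65 and 4.79 in all 6 arrays.

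ITGB8, the beta chain of a receptor for latent TGF-beta, had 12.11 and 12.39 in NRP-2 siRNA cells, 12.16 and 12.34 in VEGF-C siRNA cells, and 12.00 and 12.40 in scrambled siRNA cells on 226189_at. All groups overlapped, and the scrambled siRNA arrays held both the highest and the lowest value. Both siRNAs differed from scrambled siRNA by +0.05, with an interval of -0.43 to 0.53 for each (limma adjusted p = 0.921 for NRP-2 siRNA and 0.933 for VEGF-C siRNA). NRP-2 siRNA against VEGF-C siRNA gave 0.0039.

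ITGB1, the beta chain that pairs with most of these alpha chains, had the narrowest spread when each subunit was read by its brightest probe set. Probe set 211945_s_at had 15.07 and 15.11 in NRP-2 siRNA cells, 15.16 and 15.11 in VEGF-C siRNA cells, and 15.06 and 15.10 in scrambled siRNA cells. All 6 values lay near the top of the measured range. The interval of NRP-2 siRNA against scrambled siRNA was -0.27 to 0.29 around a difference of 0.0082 (limma adjusted p = 0.981), a sign that turned to -0.04 under quantile normalization. VEGF-C siRNA gave +0.06 (interval -0.23 to 0.34). On 1553678_a_at, NRP-2 siRNA cells had 13.93 and 13.85, VEGF-C siRNA cells 13.98 and 13.98, and scrambled siRNA cells 13.94 and 14.15, so that the NRP-2 siRNA arrays were just below the rest (-0.15 against scrambled siRNA, limma adjusted p = 0.638 over 19946 probe sets). On 1553530_a_at the values spread more widely, from 12.64 to 13.09 over the 6 arrays. The corresponding difference there was -0.10, with overlapping groups, and VEGF-C siRNA gave +0.21.

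The other 12 of the 28 integrin probe sets, 4 of ITGB1, 3 of ITGB4, 1 of ITGB5 and 4 of ITGB8, had means below 4, with values between 1.82 and 4.08, and were not tested at this filter.

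**Figure D3:**
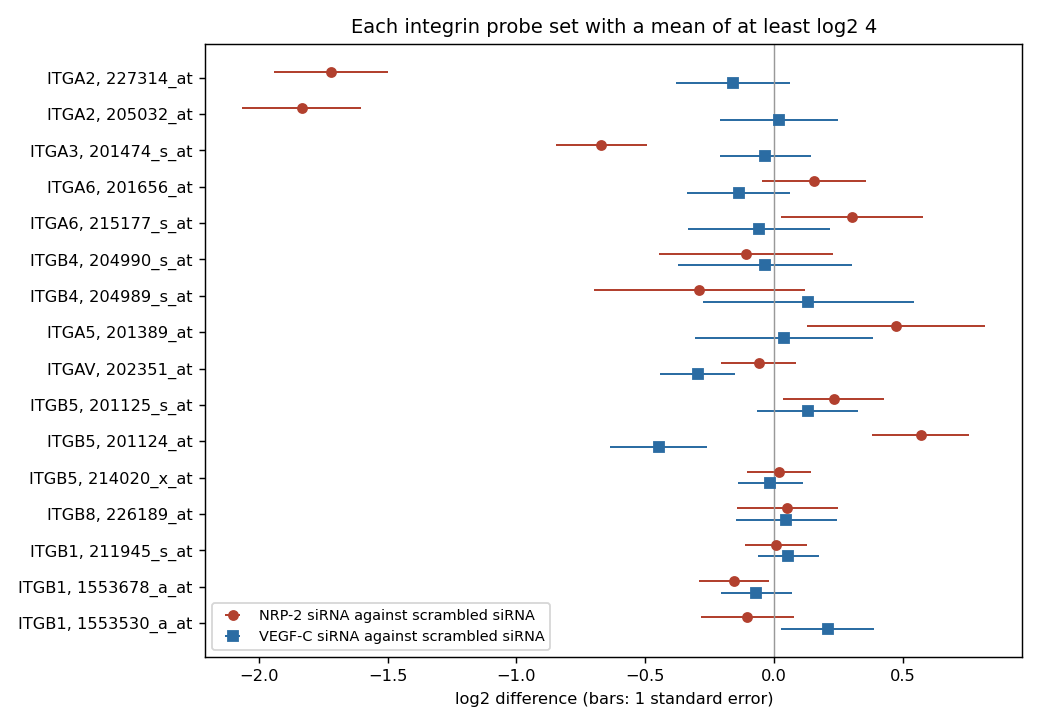
Log2 differences against scrambled siRNA of the 16 integrin probe sets with a mean of at least 4, with bars of 1 standard error. Red circles are NRP-2 siRNA and blue squares are VEGF-C siRNA. Both ITGA2 probe sets lie near -1.8 for NRP-2 siRNA, and the ITGB5 probe sets differ among themselves.

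The genes around the receptors were grouped by role, and 0 of them passed an adjusted p under 0.05 by limma in any of the 3 comparisons. The counts at an unadjusted p under 0.05 stand beside shares of all genes of 6.43% higher and 6.85% lower in NRP-2 siRNA cells, and 6.95% higher and 7.80% lower in VEGF-C siRNA cells, and nothing particular to a list is read from them. Of 16 other integrin subunits, 6 passed the filter, and 0 had an unadjusted p under 0.05 in NRP-2 siRNA cells against scrambled siRNA, against 1 lower in VEGF-C siRNA cells. That one was ITGA1, the alpha chain of the other widespread collagen receptor, with 7.84 and 7.83 in NRP-2 siRNA cells, 6.68 and 6.10 in VEGF-C siRNA cells, and 7.41 and 7.23 in scrambled siRNA cells. Its groups did not overlap, with NRP-2 siRNA at +0.52 and VEGF-C siRNA at -0.92 from scrambled siRNA (limma adjusted p = 0.387 and 0.233), so that its order across the siRNAs was not that of ITGA2. For ITGA1, NRP-2 siRNA against VEGF-C siRNA gave +1.44 (limma adjusted p = 0.114). ITGA10 (-0.69 and -1.15), ITGAE (+0.24 and +0.33) and ITGB3 (-0.66 and +0.14) had unadjusted p above 0.05 in both.

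Among the ligands, 7 laminin chains were tested, and 1 was higher at an unadjusted p under 0.05 in NRP-2 siRNA cells (all genes 6.43%) and 2 in VEGF-C siRNA cells (all genes 6.95%). LAMC1, the gamma chain of most laminins, had 11.02 and 11.02 in NRP-2 siRNA cells, 10.76 and 10.21 in VEGF-C siRNA cells, and 9.0 and 9.50 in scrambled siRNA cells. Both siRNA groups lay above the scrambled siRNA arrays, by +1.77 and +1.24 (limma adjusted p = 0.213 and 0.220). LAMB3, a chain of the laminin that hemidesmosomes bind, was at +1.06 in VEGF-C siRNA cells and +0.29 in NRP-2 siRNA cells. The medians of the 7 chains were near 0, at -0.005 for NRP-2 siRNA and -0.06 for VEGF-C siRNA. Of 11 collagen chains, 2 were lower at an unadjusted p under 0.05 in NRP-2 siRNA cells, COL1A1 (-0.84) and COL5A2 (-0.90), beside 6.85% of all genes, and 1 in VEGF-C siRNA cells, COL1A1 (-0.70), beside 7.80%. Of 20 RGD and other matrix ligands, 1 was lower in NRP-2 siRNA cells, FN1, which encodes fibronectin (-0.46), beside 6.85% of all genes. In VEGF-C siRNA cells 2 of the 20 were higher, ADAM17 (+0.50) and CCN2 (+0.80), and 3 were lower, LTBP1 (-0.57) among them, beside 6.95% and 7.80% of all genes.

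**Figure D4:**
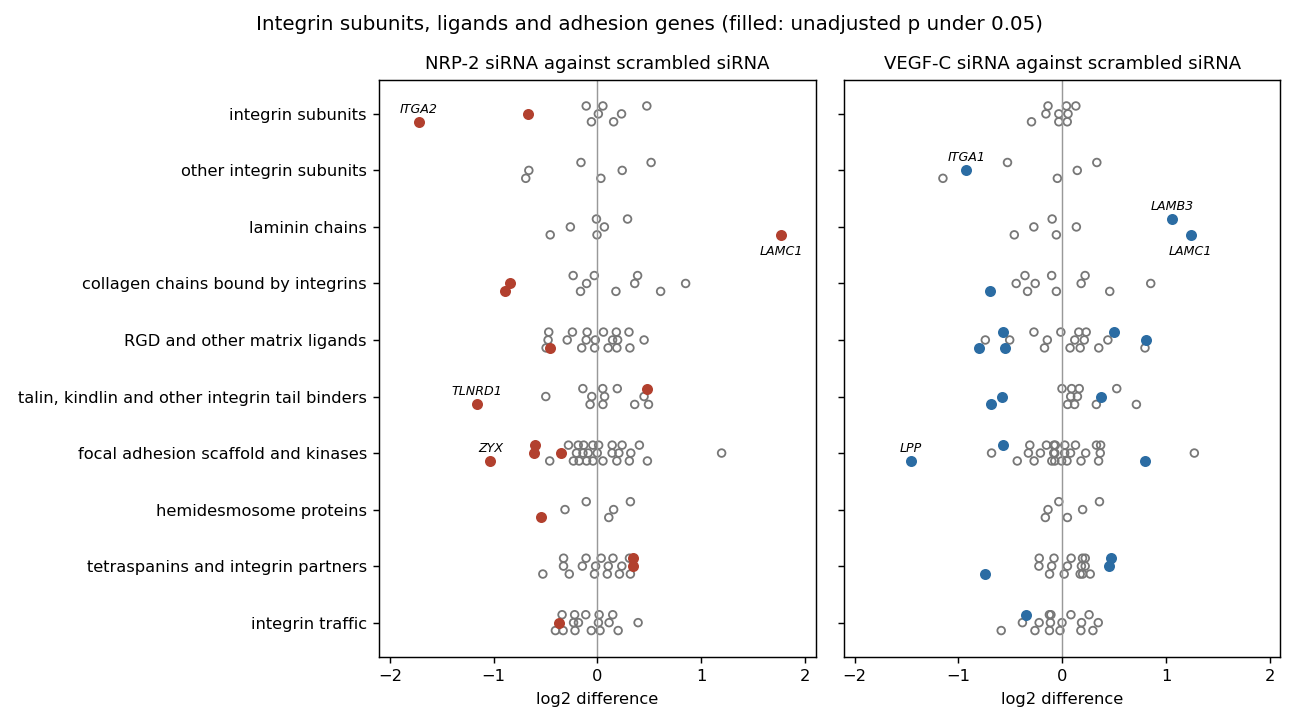
Log2 difference of each tested gene against scrambled siRNA for NRP-2 siRNA (left) and VEGF-C siRNA (right), by gene list. Filled points have an unadjusted p under 0.05, and those beyond 0.9 are named. ITGA2 (-1.72), TLNRD1 (-1.16), ZYX (-1.03) and LAMC1 (+1.77) are the named points for NRP-2 siRNA.

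On the cytoplasmic side, 13 genes whose products bind integrin tails or talin relatives were tested. In NRP-2 siRNA cells 1 was lower at an unadjusted p under 0.05, TLNRD1, which encodes a talin rod domain protein, and 1 was higher, FERMT1, which encodes kindlin-1 (+0.48), beside 6.85% and 6.43% of all genes. TLNRD1 had 6.97 and 7.12 in NRP-2 siRNA cells, 8.46 and 8.62 in VEGF-C siRNA cells, and 8.32 and 8.10 in scrambled siRNA cells. As for ITGA2, the NRP-2 siRNA arrays were the 2 lowest, by -1.16 against scrambled siRNA (SE 0.15, limma adjusted p = 0.213) and -1.49 against VEGF-C siRNA (limma adjusted p = 0.0980). In VEGF-C siRNA cells TLN1, which encodes talin-1 (-0.68), and TNS3, which encodes tensin-3 (-0.58), were lower and FERMT1 higher (+0.37) at an unadjusted p under 0.05, beside 7.80% and 6.95% of all genes. Of 29 focal adhesion genes, 4 were lower in NRP-2 siRNA cells and 0 higher, beside 6.85% and 6.43% of all genes, with ZYX, which encodes the stress fibre protein zyxin (-1.03), and VASP, an actin polymerase (-0.61), among the 4. In VEGF-C siRNA cells 2 of the 29 were lower, among them LPP, a relative of zyxin (-1.46), and 1 was higher, PEAK1 (+0.80), beside 7.80% and 6.95% of all genes. The medians of the 29 were -0.04 for NRP-2 siRNA and -0.07 for VEGF-C siRNA.

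Of 6 hemidesmosome genes, which include ITGA6 and ITGB4, 1 was lower at an unadjusted p under 0.05 in NRP-2 siRNA cells, ERBIN (-0.55), and 0 were in VEGF-C siRNA cells, beside 6.85% and 7.80% of all genes. PLEC, which encodes the keratin linker plectin, was at -0.31 and +0.36 in these comparisons. Of 18 tetraspanins and other lateral partners, 2 were higher in NRP-2 siRNA cells, CDCP1 (+0.34) and CD47 (+0.35), beside 6.43% of all genes. In VEGF-C siRNA cells 2 of the 18 were higher, CDCP1 (+0.47) and SLC3A2 (+0.45), and 1 was lower, the tetraspanin CD82 (-0.75), beside 6.95% and 7.80% of all genes. CD82 had 7.48 and 7.33 in NRP-2 siRNA cells, 6.64 and 6.37 in VEGF-C siRNA cells, and 7.29 and 7.22 in scrambled siRNA cells, so the VEGF-C siRNA arrays were the 2 lowest. Of 17 genes of integrin endocytosis and recycling, 1 was lower in each comparison, GGA3 (-0.37) in NRP-2 siRNA cells and SNX27 (-0.35) in VEGF-C siRNA cells, beside 6.85% and 7.80% of all genes. RAB5A, the early endosome GTPase, was at -0.34 and +0.18, and RAB11FIP1, a recycling adaptor, at -0.41 and +0.08, with unadjusted p above 0.05.

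The genes whose levels followed those of ITGA2 most closely were sought among the 2408 tested genes with a range of at least 1 log2 unit over the 6 arrays. They were SEPTIN2 (Pearson r = 0.997), TMEM140 (0.997) and CBX6 (0.992), a description over 6 arrays that fall into 3 groups of 2. SEPTIN2, which encodes a filament-forming GTPase, had 12.27 and 12.75 in NRP-2 siRNA cells, 13.65 and 13.57 in VEGF-C siRNA cells, and 13.78 and 13.82 in scrambled siRNA cells. For ITGAV, whose own range was only 0.45, the closest were PROS1 (0.959), PDGFRL (0.945) and TTC9 (0.942).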

How the data were processed

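Total RNA of PC3 cells was measured on 6 Affymetrix arrays. The authors deposited a log2 value for each probe set and array, made with GCRMA in Partek per the submitters' processing notes, with versions and settings not given in the sources used here. Detection calls were not used, and having 2 arrays a group limits the precision.

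Of 54675 probe sets, 41091 had 1 gene in the platform annotation of 2016, and 19946 of these averaged log2 4 or more across the arrays. The brightest such probe set stood for each of 11131 genes. Groups came from the labels. All 6 arrays entered a two-sided limma test (version 3.58.1, R 4.3.3, functions lmFit and eBayes), with 3 residual and 2.46 prior degrees of freedom, and p was Benjamini-Hochberg adjusted over all genes. The comparisons share arrays. The fit was tested on simulated arrays with independent errors and differences of 3 log2 units. These are larger than any difference of a member, so that test says nothing about smaller ones.

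The members, the gene lists and the tests were chosen with earlier results of these data known. Named were all members, the targeted genes, up to 4 genes a list with the smallest unadjusted p against scrambled siRNA, and the 3 genes most correlated with the member of smallest p in each comparison. Alternatives were each array left out, the replicate number as a block, other filters, probe set rules, normalizations, groups in the fit, a variance trend, and a covariate for the level of G2 and mitosis genes.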

Additional observations from a re-analysis of the deposited data

How the results depend on the processing

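Over 16 alternative settings, the 27 member differences (9 genes in 3 comparisons) gave 432 values. Of these, 402 kept their sign, 30 turned it and 0 crossed the adjusted p threshold. Many of the 432 could not turn. The replicate block, the other filters, each probe set on its own, the 2 groups alone and the variance trend left every member difference as it was. So did leaving out an array of the group not compared. The 402 therefore overstate how stable the signs were. ITGA2 and ITGA3 kept their sign in 16 of 16 for both comparisons of NRP-2 siRNA, with the same limit. ITGA2 ranged from -2.02 to -1.42 against scrambled siRNA (limma adjusted p 0.0555 to 0.734) and from -1.86 to -1.26 against VEGF-C siRNA (0.0764 to 0.289), and ITGA3 from -0.86 to -0.48 (0.0949 to 0.734) and from -0.82 to -0.45 (0.114 to 0.353). Leaving out single arrays turned the sign of the differences whose ranges follow. Ranges for NRP-2 siRNA against scrambled siRNA were -0.0117 to 0.3223 for ITGA6, -0.1351 to 0.0183 for ITGAV and -0.01285 to 0.02925 for ITGB1. In the same comparison they were -0.2368 to 0.0198 for ITGB4, -0.002265 to 0.4652 for ITGB5 and -0.1466 to 0.2503 for ITGB8. For VEGF-C siRNA against scrambled siRNA they were -0.1281 to 0.0619 for ITGA3, -0.4655 to 0.5461 for ITGA5, -0.3445 to 0.0701 for ITGA6, -0.527 to 0.4609 for ITGB4 and -0.1505 to 0.2463 for ITGB8. For NRP-2 siRNA against VEGF-C siRNA they were -0.07117 to 0.9404 for ITGA5, -0.5694 to 0.4185 for ITGB4, -0.1331 to 0.3344 for ITGB5, -0.137 to 0.1447 for ITGB8, and 1 to 4 members. Averaging all probe sets of a gene turned ITGB1 for NRP-2 siRNA against scrambled siRNA (-0.08267), and ITGB4 (0.0506) and ITGB5 (-0.1102) for VEGF-C siRNA against scrambled siRNA, by the choice of probe sets. Quantile normalization turned ITGB1 for NRP-2 siRNA against scrambled siRNA (-0.04045), and the G2 and mitosis covariate turned ITGB5 for VEGF-C siRNA against scrambled siRNA (-0.1429) and ITGB8 for NRP-2 siRNA against VEGF-C siRNA (-0.06686); the cause was not tested. With only the 2 groups compared, 3 members had an unadjusted p under 0.05 for NRP-2 siRNA against scrambled siRNA, ITGA5 being added. With no filter on low values, 1 member (ITGAV, limma unadjusted p = 0.0479) had one for VEGF-C siRNA against scrambled siRNA, and 1 gene of all, NWD2, passed the adjusted threshold in each comparison of VEGF-C siRNA with another siRNA. The labels give replicate numbers but no shared culture or day. Deviations of arrays with the same number correlated over 11131 genes at 0.579 for NRP-2 and scrambled siRNA, 0.112 for VEGF-C and scrambled siRNA and 0.119 for NRP-2 and VEGF-C siRNA. The 2 deviations of a group mirror each other, so each correlation rests on only 1 difference between arrays per group. With the replicate block, 2, 0 and 2 members had an unadjusted p under 0.05 for NRP-2 against scrambled, VEGF-C against scrambled and NRP-2 against VEGF-C siRNA, 0 passed the adjusted threshold, and ITGA2 had an adjusted p of 0.146 and 0.0971 in the 2 comparisons of NRP-2 siRNA. Shares of all genes at an unadjusted p under 0.05 were counted only for the fit without any of these alternatives. Member counts under the other settings therefore have no share beside them. With 2 arrays a group, single arrays set the direction of small differences, and dim probe sets have no detection call here.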
